A study of Homo sapiens with 6 samples.

Results

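Amino acid transporters carry amino acids across the plasma membrane, and 10 of their genes were examined in HCCC9810 cells, an established human cholangiocarcinoma (CCA) cell line, exposed to isolinderalactone (ILL), a sesquiterpene natural product, at 20 μM for 24 h. The members were chosen by gene symbol, with earlier results of these data known. The members were SLC7A11, SLC3A2, SLC7A5, SLC7A1, SLC1A4, SLC1A5, SLC38A1, SLC38A2, SLC6A9 and SLC43A1. They are 10 of the 367 solute carrier (SLC) genes and of the 19470 genes in the count table, and all 10 passed the filter on low counts, as did 223 SLC genes and 13066 genes in all. The study compared 3 libraries of ILL-treated cells with 3 libraries of cells given vehicle (DMSO) for the same 24 h, and both groups carried the wild type genotype. Nothing in the labels says whether the 3 libraries of a group came from separate cultures, so p-values measure the spread between these libraries, which may be technical. Both groups came from 1 cell line, and no normal biliary cells were sequenced in the samples used here.

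These transporters differ in what they move and in what drives them. SLC7A11 (xCT) and SLC7A5 (LAT1) are light chains that reach the cell surface only when bound to the heavy chain SLC3A2 (4F2hc, CD98). The SLC7A11 pair imports cystine in exchange for glutamate and supplies cysteine for glutathione, and the SLC7A5 pair imports leucine and other large neutral amino acids in exchange for glutamine. SLC43A1 (LAT3) carries large neutral amino acids without exchange. SLC1A5 (ASCT2) and SLC1A4 (ASCT1) exchange small neutral amino acids, SLC38A1 (SNAT1) and SLC38A2 (SNAT2) concentrate glutamine and alanine with sodium, SLC7A1 (CAT-1) imports arginine and lysine, and SLC6A9 (GlyT1) imports glycine. Several of these genes are textbook targets of ATF4, a transcription factor made when amino acids are short or the endoplasmic reticulum is stressed, and SLC7A11 is also a textbook target of NRF2, the regulator of antioxidant genes.

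The DNA around annotated transcription starts of these genes was read from RefSeq promoter windows (GRCh38.p14). Each window held 250 bases before and 50 after a start, and 16 windows matched 9 of the 10 members. SLC6A9, SLC7A5, SLC7A1 and SLC38A2 had 1 window each, SLC1A4, SLC38A1 and SLC43A1 had 2, and SLC1A5 and SLC3A2 had 3. The member without an entry was SLC7A11. The core of the C/EBP-ATF composite element, TGATGNAA on either strand, was present in 5 of the 16 windows, each from a different gene, and in 3.62% of all 35116 windows. These 5 matches are shown because that element is the one ATF4 binds. The matching windows of SLC1A4, SLC1A5, SLC38A1 and SLC3A2 lay at starts inside the gene spans given below. That of SLC3A2 began at 62881449, where the gene span begins at 62856102. Only the SLC7A1 window lay across the upstream end of its gene span. Which starts were used in these cells was not measured. Each line gives 30 bases in the direction of the gene, with the matched bases in capitals.
SLC1A4, chr2:64989381-64989410, plus strand, match starting 7 bases before the start: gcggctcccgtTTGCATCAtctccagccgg
SLC1A5, chr19:46784893-46784922, minus strand, match starting 97 bases before the start: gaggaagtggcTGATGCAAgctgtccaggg
SLC38A1, chr12:46266502-46266531, minus strand, match starting 4 bases before the start: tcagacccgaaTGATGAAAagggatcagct
SLC3A2, chr11:62881719-62881748, plus strand, match starting at base 38 after the start: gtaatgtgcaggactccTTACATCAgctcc
SLC7A1, chr13:29595663-29595692, minus strand, match starting at base 8 after the start: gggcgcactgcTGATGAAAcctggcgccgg

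The core of the antioxidant response element, TGACNNNGC on either strand, was present in 4 of the 16 windows and in 13.3% of all windows. The E-box CACGTG, which reads the same on both strands, was present in 3 of the 16 windows, those of SLC7A5, SLC1A5 and SLC43A1, and in 7.26% of all windows. The antioxidant matches were in windows of SLC3A2, SLC7A5, SLC1A5 and SLC7A1. The SLC3A2 window was the one with the C/EBP-ATF match. The SLC1A5 window, which also held its E-box, was another one inside the gene span. No match of one element overlapped a match of another. The windows of SLC3A2 and SLC7A5 are shown because both chains of the same transporter carried the antioxidant element, and the SLC3A2 match also contains the AP-1 letters TGACTCA.
SLC3A2, chr11:62881652-62881681, plus strand, match starting 37 bases before the start: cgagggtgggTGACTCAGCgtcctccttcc
SLC7A5, chr16:87869490-87869519, minus strand, match starting 2 bases before the start: gcggggttccTGACGCAGCtgcgggcggcg
A match gives the letters alone, and binding was not measured in these samples. The windows of SLC38A2 and SLC6A9 held none of the 3 elements, which says only that these letters are not in them.

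Total counts ranged from 34282764 to 37758569 per library. The biliary epithelial list, which includes KRT7, KRT19, KRT8, KRT18, EPCAM and SOX9, summed to between 8805 and 9034 CPM (counts scaled to a common library total) in controls and between 8524 and 9016 CPM with ILL. The 5 hepatocyte markers summed to 5.49 to 8.54 CPM in controls and 6.77 to 16.9 CPM with ILL, with 2 of the 5 at 0 in every library. The 16.9 CPM came from ILL replicate 3, where ALB had 541 counts, against 214 and 240 in ILL replicates 1 and 2. The 5 fibroblast markers summed to 12.1 to 14.1 CPM in controls and 16.8 to 18.4 CPM with ILL, mostly COL1A1, a collagen chain. The 4 endothelial markers summed to 1.03 to 1.65 CPM in controls and 1.74 to 1.91 CPM with ILL, so that neither list overlapped between groups. Of the endothelial markers, VWF had 2, 13 and 0 counts in controls and 25, 23 and 13 with ILL. PECAM1 went the other way, at 19, 15 and 15 counts in controls and 9, 10 and 6 with ILL. The 4 leukocyte markers summed to between 36.5 and 41.1 CPM in controls and between 113 and 119 CPM with ILL. Nearly all of it was CD68, a lysosomal glycoprotein. CD79A was also higher, at 20, 10 and 7 counts in controls and 48, 67 and 36 with ILL. CD3E had at most 3 counts in every library, and PTPRC had at most 1 apart from 9 in ILL replicate 1. The fibroblast, endothelial and leukocyte sums moved in the direction of the transporters, and their part in that result was not tested.

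All 10 transporter mRNAs were higher in ILL-treated cells than in controls, by 1.69-fold to 9.69-fold. Genes were called at a fold change above 2 or under 0.5 and an adjusted p under 0.05 in the quasi-likelihood test of edgeR, with Benjamini-Hochberg adjustment over all tested genes, and SE stands for the standard error of a log2 fold change. By this rule 9 of the 10 members were called higher, against 12.5% of all tested genes. The exception was SLC38A1, whose adjusted p passed but whose fold change was under 2. On the adjusted p alone all 10 were higher, against 36.2% of all tested genes, and in all 10 the lowest ILL library lay above the highest control library, against 37.5% of all tested genes. The median log2 fold change was 1.72 over the 10 members, 0.17 over all tested SLC genes and -0.0012 over all tested genes. Because the members were chosen with earlier results of these data known, these contrasts describe the list and do not test it. In bulk RNA, more transcript per cell and more cells with the transcript cannot be told apart.

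**Figure D1:**
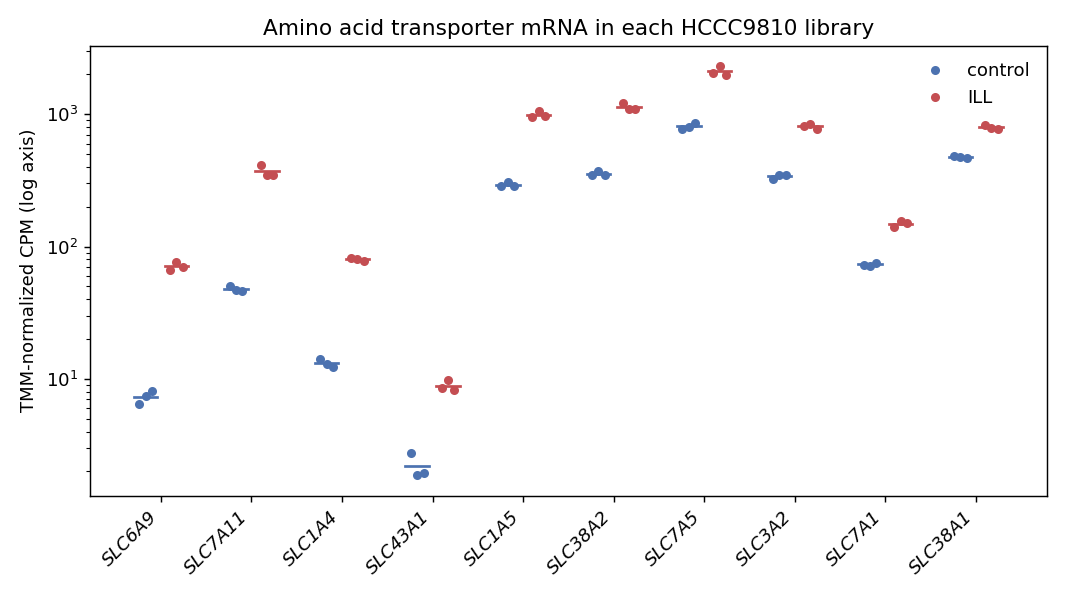
Normalized CPM (log axis) of the 10 transporter genes in each of the 3 control and 3 ILL libraries, ordered by fold change. Points are libraries and bars are group means, and in every gene the 3 ILL libraries lie above the 3 control libraries.

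SLC7A11, the cystine importer (chromosome 4 of GRCh38, 138164097 to 138242349, minus strand), was at 50.5, 47.0 and 46.5 CPM in control replicates 1 to 3. With ILL it was at 413, 349 and 344 CPM. The ILL libraries thus stood far from the controls, with ILL replicate 1 the highest. The fold change was 7.68 (95% interval 6.97 to 8.46), or 2.94 on the log2 scale (edgeR, SE 0.068, adjusted p = 1.4e-21). A noncoding gene on the opposite strand, SLC7A11-AS1, shares 865 of the 9645 exonic bases annotated for SLC7A11, and since the sources used here do not state strand, reads in that stretch cannot be assigned to either.

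SLC3A2, the shared heavy chain (chromosome 11, 62856102 to 62888875, plus strand), was at 326, 347 and 345 CPM in controls and at 817, 845 and 775 CPM with ILL. Its groups were well apart and each was narrow, at a coefficient of variation of 3.41% in controls and 4.31% with ILL. The log2 fold change was 1.26 (edgeR, SE 0.050, adjusted p = 4.6e-17), which is 2.39-fold (95% interval 2.23 to 2.57).

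SLC7A5, the LAT1 light chain (chromosome 16, 87830023 to 87869488, minus strand), had the highest level per length of the 10 genes in both groups. It was at 778, 801 and 861 CPM in controls and at 2051, 2297 and 1984 CPM with ILL, again without overlap. The log2 fold change was 1.38 (edgeR, SE 0.055, adjusted p = 4.9e-17), or 2.59-fold with a 95% interval of 2.40 to 2.81. Its interval overlapped that of SLC3A2, its partner. The annotation lists the copies SLC7A5P1 and SLC7A5P2 on the same chromosome, with which SLC7A5 may share reads, and the antisense gene AC126696.2 shares 271 of its 4745 exonic bases.

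SLC43A1, the exchange-independent carrier of large neutral amino acids (chromosome 11, 57484534 to 57515786, minus strand), was the scarcest member. It had 107, 66 and 69 counts in controls, or 2.76, 1.88 and 1.95 CPM. With ILL it had 301, 337 and 289 counts, or 8.60, 9.79 and 8.26 CPM. Control replicate 1 was the highest control and still lay far under every ILL library. The log2 fold change was 2.01 (edgeR, SE 0.19, adjusted p = 7.7e-10), the least precise of the 10, with a 95% interval of 3.08 to 5.27 around 4.03-fold.

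Both small neutral amino acid exchangers rose. SLC1A4 (chromosome 2, 64988477 to 65023865, plus strand) was at 14.2, 13.0 and 12.3 CPM in controls and at 81.9, 80.7 and 78.0 CPM with ILL. The ILL libraries of SLC1A4 differed from each other by less than 4 CPM, and its log2 fold change was 2.60 (edgeR, SE 0.074, adjusted p = 5.6e-20). SLC1A5 (chromosome 19, 46774883 to 46788594, minus strand), the glutamine carrier, was at 284, 306 and 284 CPM in controls and at 947, 1062 and 968 CPM with ILL. Its log2 fold change was 1.77 (edgeR, SE 0.054, adjusted p = 2.3e-19), and in linear terms SLC1A4 was 6.08-fold and SLC1A5 3.40-fold higher with ILL. The antisense gene AC008622.2 shares 780 of the 3332 exonic bases of SLC1A5.

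The sodium-coupled glutamine and alanine carriers lie near each other on chromosome 12 and rose unequally. SLC38A2 (46358189 to 46372867, minus strand), the member known to adapt when amino acids are withdrawn, was at 350, 370 and 346 CPM in controls and at 1223, 1092 and 1086 CPM with ILL. This was 3.19-fold (95% interval 2.96 to 3.45), a log2 fold change of 1.67 (edgeR, SE 0.054, adjusted p = 6.1e-19). SLC38A1 (46183063 to 46270017, minus strand) was at 481, 471 and 464 CPM in controls and at 832, 786 and 776 CPM with ILL. Its groups did not overlap either, but the fold change was 1.69 (95% interval 1.58 to 1.81), under the fold limit of 2, with an adjusted p of 4.7e-13 in edgeR. The intervals of these paralogs were well apart.

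SLC7A1, the arginine and lysine importer (chromosome 13, 29509410 to 29595688, minus strand), was at 73.1, 71.3 and 75.4 CPM in controls and at 140, 155 and 150 CPM with ILL. The direction was the same in every library, and the log2 fold change was 1.02 (edgeR, SE 0.057, adjusted p = 3.8e-14). Its fold change of 2.02 had a 95% interval of 1.87 to 2.20, so that the call rested on the fold limit. Without control replicate 2 the log2 fold change was 0.99 and without ILL replicate 2 it was also 0.99, and in both cases SLC7A1 was no longer called although its adjusted p still passed.

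SLC6A9, the glycine importer (chromosome 1, 43991500 to 44031467, minus strand), had the largest fold change of the 10 genes, in the edgeR fit. It was at 6.44, 7.46 and 8.06 CPM in controls and at 66.0, 76.9 and 69.5 CPM with ILL, from 250, 262 and 285 counts and 2312, 2646 and 2432 counts. The log2 fold change was 3.28 (edgeR, SE 0.089, adjusted p = 2.9e-20), with a 95% interval of 3.09 to 3.46 on that scale, and the fold change was 9.69. CCDC24, on the opposite strand, shares 404 of the 5159 exonic bases of SLC6A9 and had a log2 fold change of 0.00023, at 255, 149 and 177 counts in controls and 173, 204 and 174 with ILL.

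Ordered by fold change, SLC6A9, SLC7A11 and SLC1A4 led, and the 95% interval of each was clear of the next. SLC43A1, SLC1A5 and SLC38A2 followed with overlapping intervals. SLC7A5 and SLC3A2, which overlapped each other, came next, and SLC7A1 and SLC38A1 came last with intervals that did not overlap. Among the 223 tested SLC genes ranked from the largest rise, SLC6A9 was at rank 3, SLC7A11 at 6, SLC1A4 at 9, SLC43A1 at 14, SLC1A5 at 18 and SLC38A2 at 20. SLC7A5 was at rank 33, SLC3A2 at 38, SLC7A1 at 49 and SLC38A1 at 60. Of all 223 tested SLC genes, 47 were called higher and 25 lower, or 21.1% and 11.2%. Of all tested genes 12.5% were called higher and 11.4% lower. Of the 213 SLC genes that were not members 38 were called higher, which is 17.8%.

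**Figure D2:**
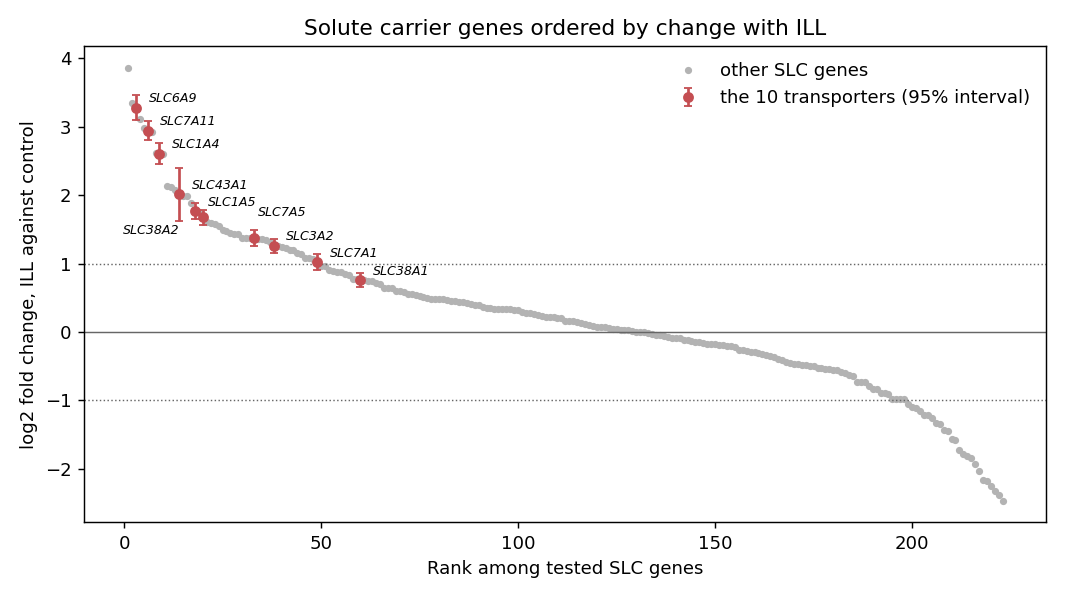
Log2 fold change of each of the 223 tested SLC genes (grey) against its rank, with the 10 transporters in red and their 95% intervals. The dotted lines mark the fold limits of 2 and 0.5, and the 10 members lie between ranks 3 and 60.

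Levels of different genes were compared in FPKM, the authors' counts scaled by gene length and library total, because the gene lengths behind these values ranged from 2440 bp for SLC3A2 to 11045 bp for SLC38A1. In controls the order from the highest was SLC7A5 at 155 ± 7.38 FPKM (SD, n = 3), SLC3A2 at 142 ± 4.43, SLC1A5 at 94.6 ± 4.18, SLC38A2 at 75.9 ± 2.87 and SLC38A1 at 43.8 ± 1.01. SLC7A1 at 10.1 ± 0.253 FPKM, SLC7A11 at 5.05 ± 0.249, SLC1A4 at 2.91 ± 0.228, SLC6A9 at 2.06 ± 0.222 and SLC43A1 at 0.662 ± 0.149 followed (SD, n = 3). No neighbours in this control order overlapped between libraries. With ILL, SLC7A11 reached 37.0 ± 4.06 FPKM (SD, n = 3) and passed SLC7A1, at 19.5 ± 0.849. SLC6A9 at 19.0 ± 1.37 FPKM passed SLC1A4 at 16.9 ± 0.464 and overlapped SLC7A1 between libraries (SD, n = 3), as SLC3A2 and SLC1A5 overlapped at 325 ± 13.3 and 307 ± 17.2 FPKM.

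The 10 genes together summed to 521, 542 and 536 FPKM in controls and to 1422, 1463 and 1352 FPKM with ILL, 2.65-fold higher on the group means. The ILL sums were far above the control sums, and most of the difference lay in the abundant genes. SLC7A5, SLC1A5, SLC3A2 and SLC38A2 made up 87.9% of the sum in controls, 88.3% with ILL and 88.5% of the increase. Within that sum, the share of SLC1A5 went from 17.7% ± 0.622 to 21.7% ± 0.866 (SD, n = 3), and that of SLC3A2 from 26.7% to 23.0% on the group means. SLC6A9 and SLC7A11, with the largest fold changes, added 1.93% and 3.63% of the increase.

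Whether partners and paralogs moved in step was examined with 6 ratios of FPKM within each library, which do not depend on how libraries are scaled. With 3 libraries against 3, an exact two-sided permutation test cannot give a p under 0.10, and each of the 6 ratios gave p = 0.1 (adjusted p = 0.1 over the 6 ratios in the exact test), without overlap between groups. The ratio of SLC7A11 to SLC3A2 was 0.0388, 0.0339 and 0.0338 in controls and 0.127, 0.104 and 0.111 with ILL, a 3.20-fold difference between groups. The ratio of SLC7A5 to SLC3A2 was 1.09, 1.05 and 1.14 in controls and 1.14, 1.24 and 1.17 with ILL, a 1.08-fold difference, with the highest control library next to the lowest ILL library. In the edgeR fit the interval of SLC7A5 overlapped that of SLC3A2, whereas the interval of SLC7A11 lay above it.

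For all light chains that pair with SLC3A2 (SLC7A5, SLC7A6, SLC7A7, SLC7A8, SLC7A10 and SLC7A11) summed over SLC3A2, the ratio was 1.18 ± 0.0449 in controls and 1.31 ± 0.0386 with ILL (SD, n = 3). The ratio of SLC7A11 to SLC7A5 went from 0.0326 ± 0.00299 to 0.0967 ± 0.0136 (SD, n = 3), so that SLC7A5 transcripts were still more abundant per length than those of SLC7A11 in each ILL library. The ratio of SLC1A4 to SLC1A5 was 0.0308 ± 0.00285 in controls and 0.0552 ± 0.00362 with ILL (SD, n = 3). Among the sodium-coupled pair the ratio of SLC38A1 to SLC38A2 was 0.597, 0.554 and 0.583 in controls and 0.295, 0.312 and 0.310 with ILL. This was the only one of the 6 ratios that was lower with ILL, at 0.53-fold.

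**Figure D3:**
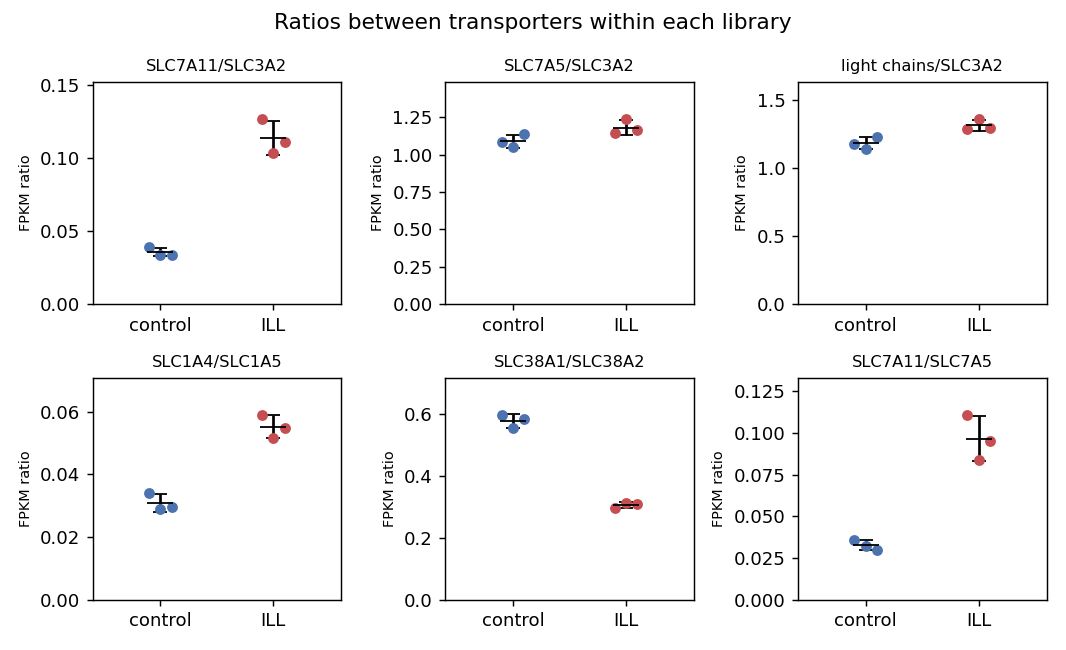
Ratio of FPKM between transporters within each library, for 6 ratios, in 3 control (blue) and 3 ILL (red) libraries, with mean and SD in black and axes that start at 0. SLC7A11/SLC3A2 was 3.20-fold higher with ILL and SLC7A5/SLC3A2 1.08-fold higher, while SLC38A1/SLC38A2 was 0.53-fold.

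The other amino acid transporters of the plasma membrane did not share one direction. Of 32 listed genes, 12 passed the filter on low counts, of which 1 was called higher and 3 lower, against 12.5% and 11.4% of all tested genes. The one called higher was SLC1A1, a glutamate, aspartate and cysteine importer, at 32, 23 and 15 counts in controls and 141, 147 and 117 with ILL (log2 fold change 2.60, edgeR, SE 0.32, adjusted p = 8.9e-08). SLC1A3, the glial-type glutamate importer of the same family, fell by 2.46 on the log2 scale (edgeR, SE 0.18, adjusted p = 9.3e-12), at 375, 344 and 329 counts in controls and 49, 66 and 66 with ILL. SLC1A4, SLC1A5 and SLC1A1 were thus called higher and SLC1A3 lower within 1 family.

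SLC7A2, a cationic amino acid importer like SLC7A1, fell by 2.32 (edgeR, SE 0.24, adjusted p = 5.4e-09), from 5.76 ± 0.527 to 1.15 ± 0.237 CPM (SD, n = 3). SLC38A4, a further neutral amino acid carrier related to SLC38A1 and SLC38A2, was the third gene called lower, at 57, 27 and 78 counts in controls and 10, 9 and 15 with ILL, and is named although its mean was under 1 CPM, a choice made after its values were seen. The remaining 8 tested genes were not called. On the adjusted p alone 5 of the 12 were higher and 5 lower, near the 36.2% and 36.9% of all tested genes. The higher ones included SLC6A14, a broad importer of neutral and cationic amino acids, at a log2 fold change of 0.65, SLC36A1 at 0.85 and SLC43A2, the relative of SLC43A1, at 0.87. SLC7A6, another partner of SLC3A2, was at -0.55. Without ILL replicate 1, SLC43A2 was called higher as well, at 1.01.

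Of 8 listed lysosomal and other intracellular genes, 7 were tested and 2 were called higher, against 12.5% of all tested genes. MFSD12, which is known to import cysteine into lysosomes and melanosomes, was at 85.7 ± 2.27 CPM in controls and 404 ± 20.9 CPM with ILL (SD, n = 3), a log2 fold change of 2.24 (edgeR, SE 0.055, adjusted p = 4.0e-21). SLC38A7, a lysosomal glutamine and asparagine exporter, was at 12.8 ± 1.07 and 33.4 ± 0.385 CPM (SD, n = 3), a log2 fold change of 1.38. SLC38A9, the lysosomal arginine sensor, and CTNS, the lysosomal cystine exporter, were both at 0.74 and passed on the adjusted p but not on the fold.

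Of 12 listed mitochondrial amino acid carriers, 10 were tested and 2 were called, both lower, against 11.4% of all tested genes called lower. SLC25A15, the ornithine carrier, fell by 1.22 on the log2 scale (edgeR, SE 0.079, adjusted p = 8.3e-13), from 47.3 ± 1.13 to 20.4 ± 2.09 CPM (SD, n = 3). SFXN2, a mitochondrial sideroflexin, fell by 1.69 (edgeR, SE 0.17, adjusted p = 2.4e-09). On the adjusted p alone 8 of the 10 were lower, against 36.9% of all tested genes, among them SFXN1, a mitochondrial serine carrier, at -0.87 and SLC25A22, a glutamate carrier, at -0.90, and 1 was higher, SFXN3 at 0.56. The median log2 fold change was 1.72 over the 10 members, 0.07 over the other plasma membrane genes, 0.74 over the lysosomal and other intracellular genes and -0.44 over the mitochondrial genes.

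**Figure D4:**
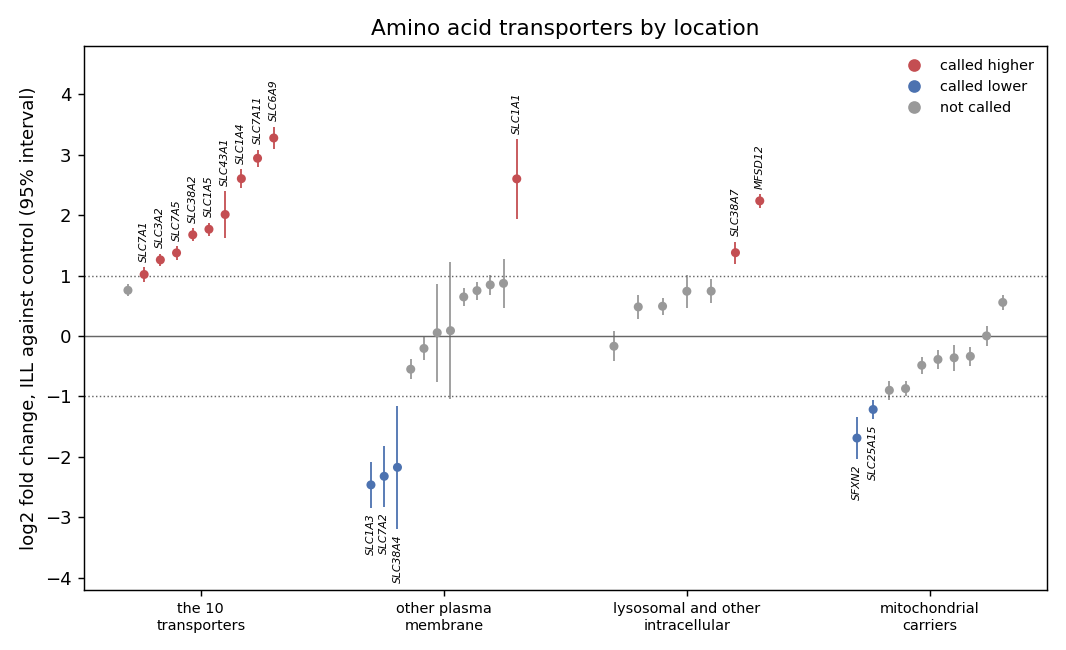
Log2 fold change with 95% interval of the tested amino acid transporters in 4 lists, with genes called higher in red, called lower in blue and not called in grey, and dotted lines at the fold limits of 2 and 0.5. The lists held 9 of 10, 1 of 12, 2 of 7 and 0 of 10 genes called higher, in the order plotted, against 12.5% of all tested genes.

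Regulators known to act on these genes or proteins were read from the same fit, as 9 listed genes, of which 5 were called higher, against 12.5% of all tested genes. ATF4 was at 275 ± 7.43 CPM in controls and 919 ± 37.6 CPM with ILL (SD, n = 3), a log2 fold change of 1.74. Its dimer partners CEBPB and CEBPG were 2.82-fold and 2.25-fold higher, DDIT3 (CHOP) 6.13-fold and TRIB3, a pseudokinase that feeds back on ATF4, 8.41-fold. Of these 5 genes CEBPG had the largest adjusted p in edgeR, at 1.5e-14. NFE2L2, which encodes NRF2, passed on the adjusted p at a log2 fold change of 0.88 and was not called. MYC, a known activator of SLC1A5 and SLC7A5, was lower at -0.56, and NEDD4L, a ubiquitin ligase of membrane transporters, was lower at -0.66, both under the fold limit. NEDD4, a related ligase, was at 0.39. These are mRNA levels in the same 6 libraries, and their part in the transporters' result was not tested.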

How the data were processed

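RNA-seq libraries of HCCC9810 cells with ILL or vehicle were grouped, and numbered, from the sample titles, 3 per group, and all 6 were used. The table deposited by the authors holds, for each gene symbol, a raw count and an FPKM value per library. The FPKM values deposited by the authors equal the count divided by a gene length and the library's total, within 0.1% for 100% of nonzero values. The submitters' processing notes name GRCh38 and DESeq2, while the aligner, counter and annotation are not given in the sources used here.

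After filterByExpr and TMM normalization, a quasi-likelihood model in edgeR 4.0.16 (R 4.3.3) compared ILL with control over 13066 genes, on totals of 34282764 to 37758569. The biological coefficient of variation was 0.0717, so that replicate spread and not counting sets most errors. Standard errors and 95% intervals come from this fit. Its calls and median fold changes, but not its errors or intervals, were checked on counts simulated from its own estimates of spread. The simulation changed few genes, equally in both directions and by a single fixed size. It therefore does not bear on the scaling of the libraries or on calls near the fold limit. CPM values use TMM library sizes. Ratios used exact permutation tests. Positions come from GENCODE release 29 and promoter windows from RefSeq.

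The members and lists were chosen with earlier results of these data known. All 10 members were named, then at most 3 called genes at each end of each further list with a mean of at least 1 CPM, all listed regulators, and 3 called SLC genes at each end, although some genes under these rules are not reported here. Alternatives were the Wald test of DESeq2 1.42.0, scaling by DESeq2's size factors or by library size alone, omitting the filter or requiring 10 counts in every library, a replicate block, each library left out, no fold limit, and limma (3.58.1) on log2 of FPKM plus 1 or plus 0.1.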

Additional observations from a re-analysis of the deposited data

How the results depend on the processing

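Every member was higher with ILL in all 15 alternatives run for it, and 9 of the 10 kept their side of the limits in each. SLC7A1, at a log2 fold change of 1.02, was no longer called in 6 of them, at 0.95 with library size only, 0.99 without control replicate 2 or ILL replicate 2, 0.88 with limma on FPKM plus 1 (with or without the filter) and 0.94 with limma on FPKM plus 0.1. SLC43A1 ranged most, from 1.10 with limma on FPKM plus 1 to 2.21. The other plasma membrane genes called higher were 2 with no filter and with DESeq2's Wald test (SLC6A7 in addition), 1 to 2 when 1 library was left out (2 without ILL replicate 1), and 0 with each limma fit, which called 1 lower. The limma fits that required a mean FPKM of at least 1 did not test SLC1A1, SLC7A2 or SLC38A4. In the limma fit without that filter these genes were tested and not called. Without the fold limit, 5 of the other plasma membrane genes were higher and 5 lower, and 6 intracellular genes were higher. Likewise 1 mitochondrial gene was higher and 8 lower, and 102 SLC genes were higher and 66 lower. Without that limit 36.2% of all tested genes were higher and 36.9% lower. Of the SLC genes, limma on FPKM plus 1 called 21 higher and 15 lower with or without the filter, and limma on FPKM plus 0.1 called 28 higher. Over 10571 genes with a mean FPKM of at least 1, limma on FPKM plus 1 called 668 higher and 923 lower. In edgeR 1635 and 1485 of 13066 were called. FPKM values are scaled by library total without TMM. The median log2 fold change over all genes was -0.086 in that limma fit, -0.070 with library size only and -0.0012 in the main fit. The pseudocount lowers the fold change of scarce genes by construction.

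No pairing by replicate number was visible. Same-numbered libraries had correlations of 0.011, -0.022 and -0.018 between their deviations from the group means. Not every library correlated best with its own number. Such values cannot tell whether same-numbered libraries were handled together. With the replicate number as a block, 9 members were called higher, and 1627 genes were higher and 1484 lower overall. All 6 ratios kept their direction in the fits that left out 1 library and with FPKM plus 1. Depth limited SLC43A1 most, at 66 to 107 counts in controls.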

Other observations

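Among SLC genes outside the 10 members and called at a mean of at least 1 CPM, the 3 with the largest rises are not known as amino acid carriers. SLC26A9, an epithelial chloride channel and transporter, had a log2 fold change of 3.86 (edgeR, SE 0.51, adjusted p = 2.7e-07), from 0.246 to 3.55 CPM on the group means. SLC44A4, a choline-like and thiamine pyrophosphate transporter of epithelia, rose by 3.35 (edgeR, SE 0.12, adjusted p = 5.7e-18), from 2.70 to 27.6 CPM. SLC2A12, a glucose transporter, rose by 3.11, from 0.580 to 5.11 CPM. SLC26A9 and SLC2A12 were under 1 CPM in controls and met the mean of 1 CPM only through the ILL libraries. Among the next was SLC7A4, of the cationic amino acid transporter family, at rank 7 of the 223 with a log2 fold change of 2.92, from 0.667 to 5.06 CPM, and it is named after its values were seen. At the other end, SLC1A3 and SLC7A2, both amino acid carriers, stood at ranks 223 and 221 of the 223 tested SLC genes.

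SLC6A7, a proline carrier that did not pass the filter, had 0 counts in each control library and 2, 16 and 2 counts in ILL replicates 1 to 3, and is named after its values were seen.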
